A study of Homo sapiens with 2 samples.

Results

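The Eph receptors, the largest family of receptor tyrosine kinases, and their membrane-bound ligands, the ephrins, form a cell contact signalling system. The members described here are 10 genes taken by their gene symbol: the receptors EPHA1, EPHA2, EPHA4, EPHB2, EPHB3 and EPHB4, and the ligands EFNA1, EFNA4, EFNB1 and EFNB2. All probe sets of the array annotated with 1 of these symbols alone were used. They numbered 18 and named 9 of the 10 genes, out of 19775 genes named in all. EPHB2 was the member without such a probe set and is not analysed here. The rule uses gene names alone, but the family was chosen for description with earlier results of these data known.

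The RNA came from OECM1, an established line of head and neck cancer, grown in RPMI with fetal bovine serum. In the let-7i group the cells carried pmCherry-let7i after stable transfection, a vector for the microRNA let-7i that also marks the cells with mCherry, a red fluorescent protein. In the control group they carried the mCherry vector without an insert, which the labels also call pmR-mCherry. Each group had 1 array, so the differences have no replicates behind them, no p-value is given, and the culture cannot be told apart from the vector. The labels state neither the promoter of the vector nor whether a transfected line was a clone or a pool. Mature let-7i was not measured by these arrays. It is an RNA of 22 bases, shown here because it is the molecule that the vector adds, with its seed (bases 2 to 8) in capitals. It is encoded on the plus strand at chr12:62603691-62603712 of GRCh38.p14, and the sequence is from RefSeq.

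hsa-let-7i-5p: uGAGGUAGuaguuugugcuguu

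An ephrin on the surface of a cell binds an Eph receptor on its neighbour and signals both ways, forward through the receptor kinase and in reverse through the ephrin. A-type ephrins are held in the membrane by a lipid anchor and B-type ephrins span it. A-type receptors mainly bind A-type ephrins and B-type receptors B-type ephrins, and EPHA4 binds both. In epithelia the system shapes cell repulsion, boundaries between cell populations, adhesion and migration, and several of its genes are studied in squamous carcinoma.

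The signals are MAS5 intensities on a linear scale, each array being scaled to the same trimmed mean. The floor below which a signal was not read was the median over all probe sets of the array, 79.5 on the let-7i array and 88.0 on the empty vector array. A ratio is the log2 of the let-7i signal over the empty vector signal, centred on the median of the genes that both arrays measured. A signal under the floor was replaced by the floor, and the ratio is then a bound. A difference was called at 2-fold, by size alone. The SD of the ratio of 1 probe set, from 5807 genes with at least 2 measured probe sets, was 0.25 on the log2 scale. By signal, it was 0.34 for genes with mean signals up to 403, 0.25 up to 776, 0.21 up to 1643 and 0.15 above. This SD covers probe noise and no variation between cultures. Signals of different probe sets cannot be set against each other, because each probe set has its own sensitivity.

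Of the 18 member probe sets, 14 were at or above the floor on both arrays, 1 on the empty vector array alone and 3 on neither. The ligands and the receptors EPHA2 and EPHB4 were close to equal on both arrays in their brightest probe sets. EPHB3 and EPHA1 were lower with let-7i, and the probe sets of EPHA4 pointed both ways. No member probe set reached 2-fold higher with let-7i (0 of 15 above the floor on at least 1 array), against 0.982% of the 23919 probe sets above the floor on at least 1 array. A single probe set, of EPHB3, was at least 2-fold lower, against 1.39% of all. At 1.5-fold 3 of the 15 member probe sets above the floor were lower and none was higher, against 6.71% lower and 4.11% higher over all probe sets. The 3 belonged to EPHB3, with both of its probe sets, and to EPHA1, so they are 2 genes. All 3 had mean signals up to 403, where probe noise was largest. The share at 1.5-fold was not taken for such dim probe sets apart.

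**Figure D1:**
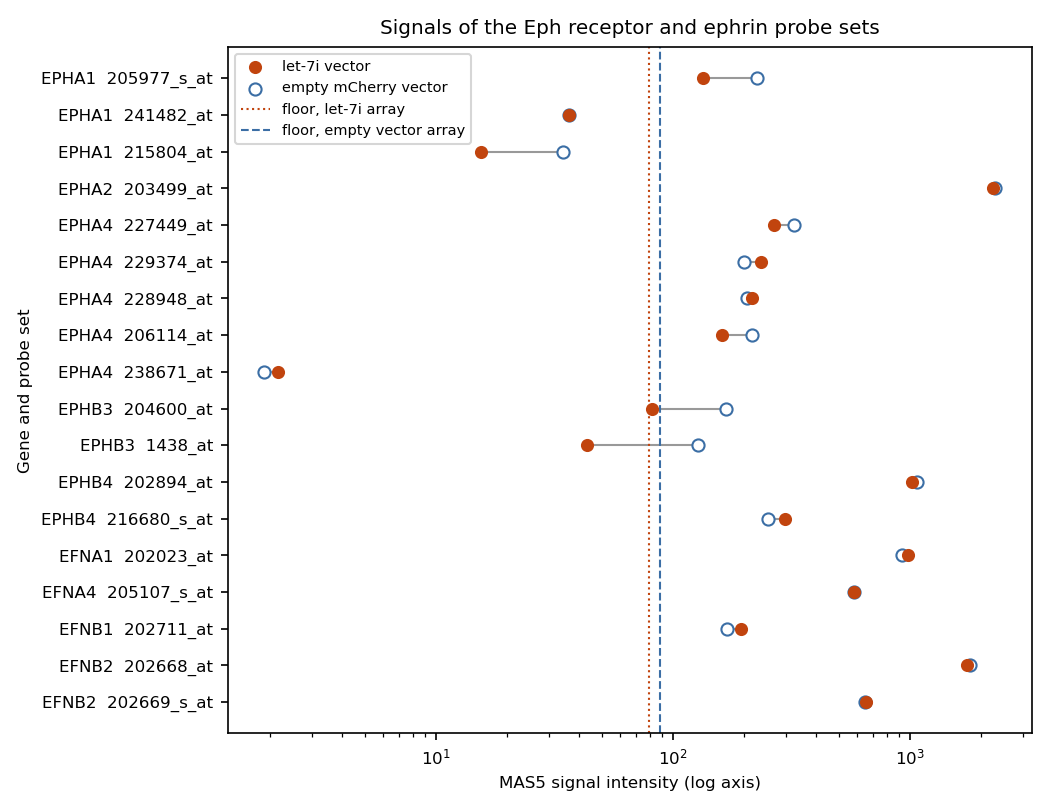
MAS5 signal intensity (log axis) of each member probe set on the let-7i array (filled) and on the empty vector array (open), with the floor of each array as a vertical line. The points lie close together for EPHA2, EPHB4 and the ephrins, while those of EPHB3 lie apart (81.3 with let-7i and 166.8 with the empty vector in its brighter probe set) and near the floors.

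EPHB3 is a B-type receptor that in the intestine keeps epithelial cells in their compartment. Its brighter probe set, 204600_at, had a signal of 81.3 with let-7i, against 166.8 with the empty vector, a 2.06-fold lower level and a log2 ratio of -1.04. The let-7i signal was just above the floor of 79.5. The ratio is 3.1 times the SD of 1 probe set for mean signals up to 403. That SD rests on probe sets above the floor on both arrays. It was not estimated apart for signals this close to the floor, so the multiple can be too large there. The other probe set, 1438_at, had 43.5 with let-7i and 127.8 with the empty vector. Its let-7i signal was below the floor, so the ratio is a bound, at least 1.61-fold lower (log2 ratio of -0.69). Both probe sets were thus lower with let-7i. Among probe sets with mean signals up to 403, 2.32% were at least 2-fold lower. The 2-fold call was lost under both other scalings of the arrays, with a log2 ratio of -0.91 after lowess centring and -0.92 after quantile normalization. When the probe sets of every gene were averaged and the averages centred anew, EPHB3 had -0.85. That average takes in the bound of 1438_at, so it is itself a bound and cannot decide the 2-fold call. Raising the floor to the 65th percentile left neither probe set readable.

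EPHA1, an A-type receptor expressed in epithelia and the first of the family to be cloned, had 1 readable probe set, 205977_s_at. Its signal was 133.4 with let-7i and 226.1 with the empty vector, a 1.70-fold lower level (log2 ratio of -0.76). The ratio is 2.2 times the SD of 1 probe set for mean signals up to 403. The other EPHA1 probe sets were below the floor on both arrays. They had 36.3 with let-7i and 36.5 with the empty vector (241482_at), and 15.4 with let-7i and 34.3 with the empty vector (215804_at). The direction of EPHA1 thus rests on a single probe set, which ends in _s_at, the mark of a probe set that can match several transcripts. The log2 ratio was -0.66 after both lowess centring and quantile normalization. In such bulk RNA, fewer cells that express a gene and less of its RNA per cell cannot be told apart.

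EPHA2, the A-type receptor most studied in carcinoma, had 2235 with let-7i and 2291 with the empty vector in its only probe set (203499_at). The log2 ratio of -0.04 is within the SD of 0.15 for signals this bright. EPHB4, a B-type receptor for EFNB2 known from vein identity in the endothelium, had 1020 with let-7i and 1067 with the empty vector in its brighter probe set (202894_at, log2 ratio of -0.07). Its other probe set had 295.5 with let-7i and 250.5 with the empty vector (216680_s_at, 0.235). The EPHB4 probe sets therefore disagreed in sign, each within the SD at its signal. The setting that averages the probe sets of every gene and centres anew on those means gave 0.10.

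EPHA4, a receptor that binds A-type and B-type ephrins, had 4 probe sets above the floor on both arrays. The brightest had 267.3 with let-7i and 323.2 with the empty vector (227449_at, log2 ratio of -0.28). The next had 235.9 with let-7i and 198.6 with the empty vector (229374_at, 0.245). The direction of EPHA4 thus depended on the probe set. The third had 215.2 with let-7i and 205.0 with the empty vector (228948_at, 0.07), and the dimmest measured one had 161.5 with let-7i and 215.4 with the empty vector (206114_at, -0.42). The SD between the 4 ratios was 0.31, close to the 0.34 of probe noise at such signals, and their mean was -0.10. They spanned 0.66 on the log2 scale. Of the 639 genes with 4 measured probe sets, 25.7% spanned as much and 68.4% had ratios of both signs. The remaining EPHA4 probe set was far below the floor, with 2.16 for let-7i and 1.89 for the empty vector.

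**Figure D2:**
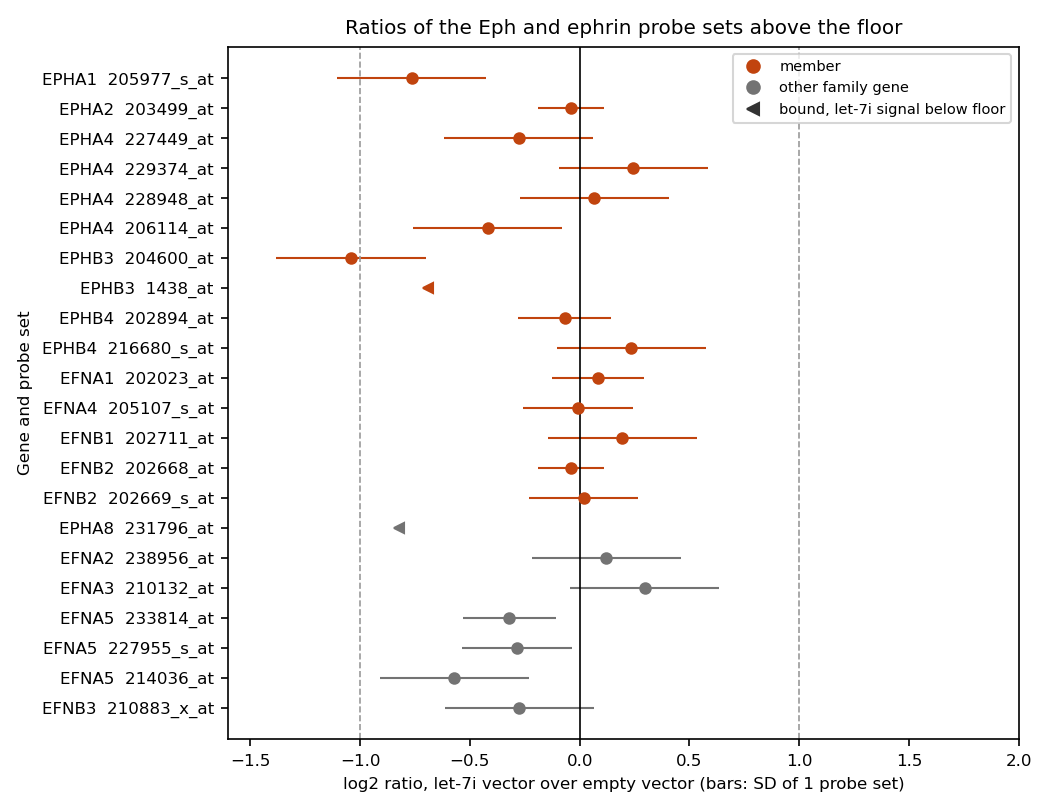
Log2 ratio (let-7i vector over empty vector) of each Eph and ephrin probe set above the floor on at least 1 array, with bars of 1 SD of a probe set at its signal. Triangles are bounds without a bar, and dashed lines mark 2-fold. EPHB3 and EPHA1 lie left of 0 by more than their bars, as do EPHA4 probe set 206114_at and the 3 probe sets of EFNA5. The ephrin members lie within their bars of 0.

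Among the ligands, EFNA1, an A-type ephrin induced by inflammatory cytokines and a main ligand of EPHA2, had 980.7 with let-7i and 923.6 with the empty vector (202023_at, log2 ratio of 0.08). EFNA4, another lipid-anchored A-type ephrin, had 579.6 with let-7i and 580.4 with the empty vector (205107_s_at, -0.01). Both A-type ligands were within the SD of 1 probe set. EFNB1, a transmembrane ephrin whose loss disturbs craniofacial development in humans, had 193.4 with let-7i and 168.5 with the empty vector (202711_at, 0.195). EFNB2, the ligand of EPHB4 and a marker of arteries, had 1737 with let-7i and 1782 with the empty vector in its brighter probe set (202668_at, -0.04). Its other probe set had 653.2 with let-7i and 643.7 with the empty vector (202669_s_at, 0.02). All 5 ligand probe sets lay between -0.04 and 0.195 and within the SD at their signals.

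By role, 7 of the 10 receptor probe sets above the floor were lower and 3 higher, with a median log2 ratio of -0.17, and 2 of 5 ligand probe sets were lower and 3 higher, with a median of 0.02. The median over all 15 was -0.04, against -0.03 for all probe sets above the floor on at least 1 array. Of the 14 member probe sets measured on both arrays, 10 had a ratio within 0.25 of 0 (the SD of a single probe set), as did 60.3% of all 21442 probe sets so measured. With the brightest probe set of each gene, all 5 receptors had a negative ratio, from -1.04 to -0.04, and the 4 ligands ran from -0.04 to 0.195. The median over all genes above the floor was -0.01. The ratios of EPHA2, EPHB4 and EPHA4 lay within the SD of 1 probe set at their signals. EPHB4 had 0.10 when probe sets were averaged and centred anew. The receptor median of -0.28 by gene is that of EPHA4, whose probe sets disagree, and it was -0.08 when probe sets were averaged and centred anew. No test of receptors against ligands is possible with 1 array per group.

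**Figure D3:**
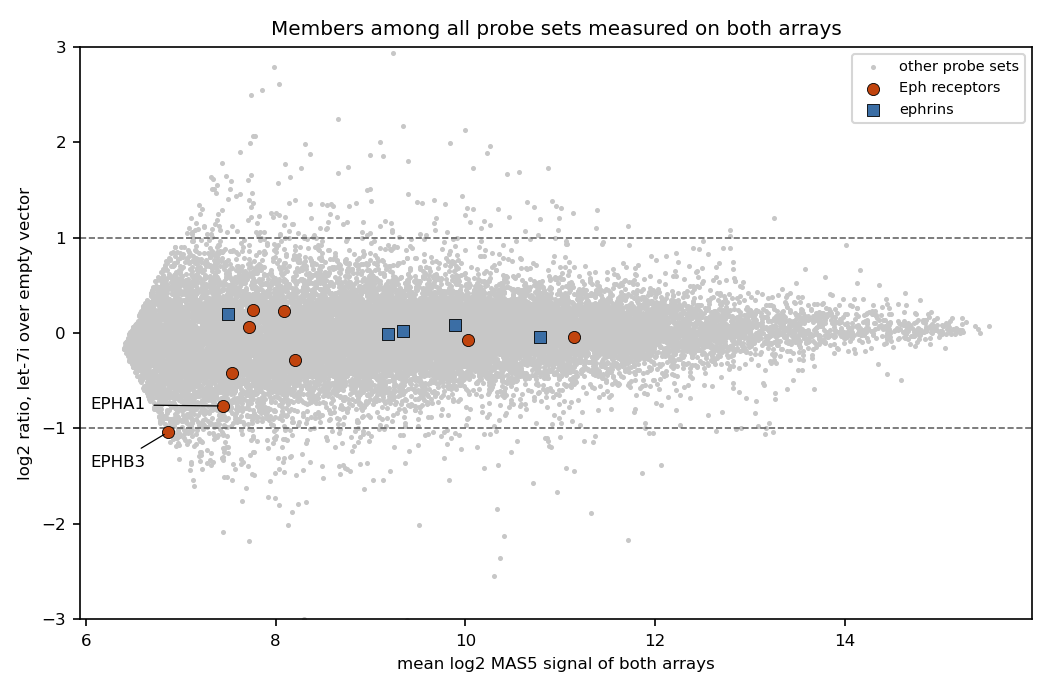
Log2 ratio (let-7i vector over empty vector) against mean log2 MAS5 signal for all probe sets measured on both arrays (grey), with the receptors as circles, the ligands as squares and dashed lines at 2-fold. The axis leaves out 3 probe sets beyond 3 on the log2 scale, and the grey edge at the left is set by the floors. The members with the lowest ratios, EPHB3 (-1.04) and EPHA1 (-0.76), are dim ones, and the bright EPHA2 (-0.04) lies at the centre.

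The promoters of the members were matched in RefSeq, from 250 bases before to 50 after each start site in GRCh38.p14. All 10 genes matched, with 12 windows, because EPHA4 and EPHB2 have 2 each. Shown are those of EPHB3 and EPHA1, the receptors with the lowest ratios, and those of EPHB4 and EPHA2, receptors of the same types whose brightest probe sets were close to equal. Each is printed 5′ to 3′ on the strand of its gene. Capitals mark matches to the E-box CANNTG, whose form CAGGTG, read as CACCTG on the other strand, is the one that repressors of epithelial genes such as ZEB1 are known to bind.

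EPHB3, chr3:184561535-184561834, plus strand: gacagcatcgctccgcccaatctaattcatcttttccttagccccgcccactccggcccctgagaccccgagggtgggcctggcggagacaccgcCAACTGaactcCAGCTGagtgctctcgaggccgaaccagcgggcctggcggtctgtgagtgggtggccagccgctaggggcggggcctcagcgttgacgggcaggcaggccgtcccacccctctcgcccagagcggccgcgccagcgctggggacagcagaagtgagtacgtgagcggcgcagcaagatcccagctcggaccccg

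EPHA1, chr7:143408807-143409106, minus strand: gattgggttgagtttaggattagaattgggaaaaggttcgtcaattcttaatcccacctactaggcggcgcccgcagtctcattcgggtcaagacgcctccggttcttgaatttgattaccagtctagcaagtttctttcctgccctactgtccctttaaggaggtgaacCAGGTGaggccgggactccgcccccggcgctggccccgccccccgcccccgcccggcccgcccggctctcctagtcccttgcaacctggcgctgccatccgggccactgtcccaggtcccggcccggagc

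EPHB4, chr7:100827474-100827773, minus strand: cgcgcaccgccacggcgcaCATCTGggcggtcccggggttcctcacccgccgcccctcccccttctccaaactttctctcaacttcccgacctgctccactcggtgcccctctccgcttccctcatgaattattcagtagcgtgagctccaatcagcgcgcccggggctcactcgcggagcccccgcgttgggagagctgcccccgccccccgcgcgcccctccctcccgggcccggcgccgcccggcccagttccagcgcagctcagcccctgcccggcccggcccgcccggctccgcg

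EPHA2, chr1:16156020-16156319, minus strand: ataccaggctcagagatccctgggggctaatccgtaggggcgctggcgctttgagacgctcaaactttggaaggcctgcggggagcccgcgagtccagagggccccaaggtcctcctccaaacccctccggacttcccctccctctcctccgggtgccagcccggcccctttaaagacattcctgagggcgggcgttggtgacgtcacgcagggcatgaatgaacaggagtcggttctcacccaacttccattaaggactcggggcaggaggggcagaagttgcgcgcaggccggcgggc

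The EPHA1 window held 1 CAGGTG, with its first base at -80 from the start site. EPHB3 held 2 matches to CANNTG and neither was CAGGTG, being CAACTG at -155 and CAGCTG at -144. EPHB4 held CATCTG at -231 and EPHA2 held no match. Over both strands, CAGGTG was found in 3 of the 10 member genes (EPHA1, EPHB2 and EFNB2) and in 20.6% of 34943 promoter windows of this length. CANNTG, which includes CAGGTG, was found in 6 member genes and in 68.7% of all windows. All 12 member windows held GGGCGG, read as CCGCCC on the other strand and being the core of the GC box, as did 44.9% of all windows. The GC content of the member windows ran from 43.0% to 83.0%, against a median of 58.7%. EFNB2, whose probe sets had ratios near 0, held CACCTG at -167. A match is no evidence of binding.

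The other 12 genes of the family were mostly not readable. Of their 32 probe sets, 25 were below the floor on both arrays, and 7 genes were below it in every probe set: EPHA3, EPHA5, EPHA6, EPHA7, EPHA10, EPHB1 and EPHB6. EFNA5, a lipid-anchored ligand with a wide range of A-type receptors, was readable in 3 probe sets. The brightest had 774.1 with let-7i and 963.6 with the empty vector (233814_at, log2 ratio of -0.32). All 3 pointed the same way, from -0.57 to -0.29. EFNA3 had 195.0 with let-7i and 158.4 with the empty vector (0.30). EFNA2 had 128.0 with let-7i and 117.3 with the empty vector (0.12). EFNB3, a B-type ephrin, had 107.1 with let-7i and 129.2 with the empty vector (-0.275), in a probe set that can match several transcripts. EPHA8 was above the floor on the empty vector array alone, with 61.7 for let-7i and 140.1 for the empty vector, a bound of at least 1.77-fold lower. None of the 4 genes measured on both arrays was past 2-fold. The bound of EPHA8 leaves its 2-fold call open, and the 7 unreadable genes had no ratio. With the floor lowered to the 25th percentile, 2 of the 12 genes passed 2-fold upwards and 2 passed it downwards.

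Genes that act beside the Eph system were followed by lists of the receptor's downstream effectors, its turnover and the ephrin-B side. Over all genes by their brightest probe set, 1.06% reached 2-fold higher and 1.38% reached 2-fold lower, and the median was -0.01. Of 23 forward signalling genes 21 had a probe set with their symbol alone, and 19 were above the floor. By brightest probe set, 15 of these were higher and 4 lower, and the share of higher genes was not taken over all genes. Some ratios lay within the SD of 1 probe set, among them GRB2 (0.006) and ARHGEF16 (-0.20). FYN, ITSN1, TIAM1, YES1 and GRB2, counted as higher, also had measured probe sets that were lower. NCK1, counted as lower, also had a higher one. The median log2 ratio of the 19 was 0.19. A single one, DOCK4, was past 2-fold. DOCK4 is an exchange factor for RAC1 that acts with ELMO2 downstream of EPHA2. Its 1 measured probe set had 734.6 with let-7i and 354.5 with the empty vector (log2 ratio of 1.05). The other DOCK4 probe sets were below the floor on both arrays. ABL2, a kinase that remodels actin, had 1221 with let-7i and 749.5 with the empty vector, and its 3 measured probe sets ran from 0.38 to 0.79. ARHGEF15, an exchange factor for RHOA bound by Eph receptors, had 138.5 with let-7i and 88.7 with the empty vector (0.64), and the signal with the empty vector was just above the floor. The other ARHGEF15 probe set was above the floor on the let-7i array alone, with a bound that leaves its direction open. GRB7, an adaptor, pointed the other way, with 629.3 for let-7i and 914.1 for the empty vector (-0.54).

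Of 11 genes of turnover and cleavage 10 had a probe set with their symbol alone. Of these 9 were above the floor, and the ratio was positive in 3 and negative in 6. The median was -0.235 and none was past 2-fold. PTPRO, a phosphatase that acts on Eph receptors, had 6780 with let-7i and 13037 with the empty vector (log2 ratio of -0.95) in 1 probe set, while its other probe sets were below the floor. MMP14, a membrane protease that cleaves EPHA2, had 533.1 with let-7i and 769.0 with the empty vector (-0.53), but its 4 probe sets ran from -0.75 to 0.17. PTPN13, a phosphatase that binds B-type ephrins, had 330.3 with let-7i and 411.1 with the empty vector (-0.32 in its brightest probe set and -1.09 in the other). Its probe sets agreed in sign and not in size. INPPL1, the lipid phosphatase SHIP2 that restrains uptake of EPHA2, had 544.4 with let-7i and 669.0 with the empty vector (-0.30).

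On the ephrin-B side 10 of 12 genes were above the floor, and the ratio was positive in 6 and negative in 4. The median was 0.13. RGS3, which links B-type ephrins to G protein signalling, had 410.0 with let-7i and 250.9 with the empty vector (log2 ratio of 0.705). This is its 1 measured probe set, the others being below the floor on both arrays. PARD6A, a polarity protein, had 72.8 with let-7i and 216.2 with the empty vector, a bound of at least 2.73-fold lower, which a floor at the 65th percentile removes. PARD6B, the related polarity protein, was lower too in its 1 measured probe set, with 1651 for let-7i and 2495 for the empty vector (-0.60). DVL1, a Wnt adaptor used by ephrin-B, had 1798 with let-7i and 1420 with the empty vector (0.34), and PICK1, a PDZ protein, had a log2 ratio of -0.28.

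**Figure D4:**
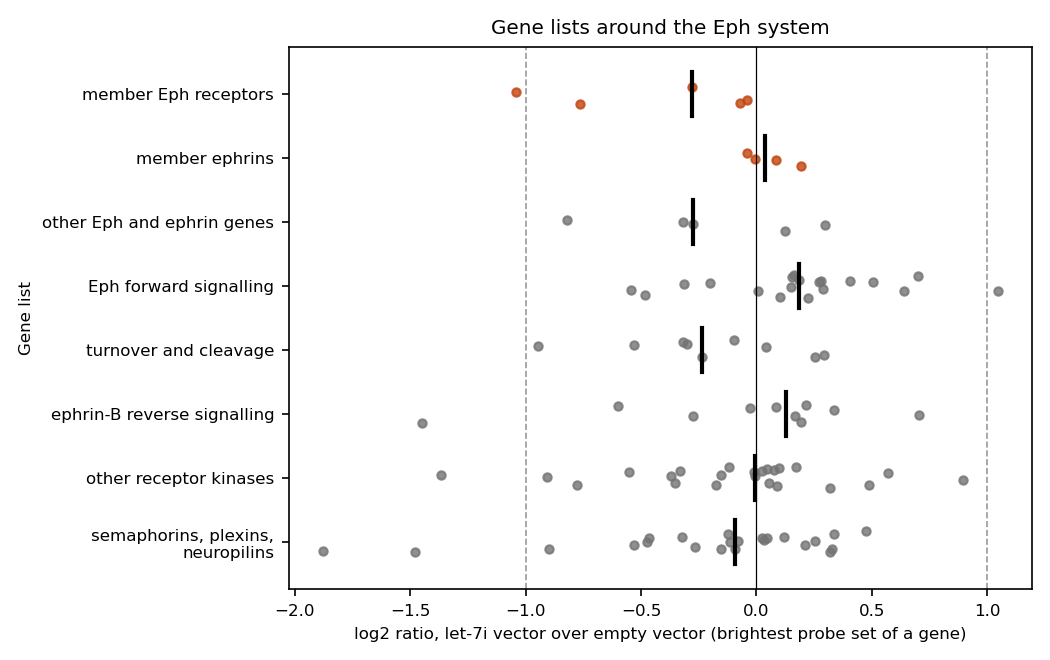
Log2 ratio (let-7i vector over empty vector) of each gene above the floor on at least 1 array, by its brightest probe set, with 1 row per gene list. Vertical bars are list medians and dashed lines mark 2-fold. Points of genes below the floor on 1 array are bounds. The members (top rows) have medians of -0.28 for receptors and 0.04 for ligands.

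The ratios of the Eph receptors, from -1.04 to -0.04 by gene, lay within the range of other receptor families. Of 23 other receptor tyrosine kinases above the floor, 11 were higher, 11 lower and 1 undecided, with a median of -0.01 and a range from -1.37 to 0.90. Of 23 semaphorins, plexins and neuropilins, another guidance family, 10 were higher and 13 lower. Their median was -0.09, with a range from -1.88 to 0.47. These differences between lists were not tested.

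Markers of the cell type were read on the same arrays. The adhesion proteins CDH1 (5090 with let-7i and 6785 with the empty vector) and EPCAM (6690 with let-7i and 10912 with the empty vector) were bright on both arrays, with log2 ratios of -0.42 and -0.71. DSP, the desmosomal protein desmoplakin, pointed the other way, with 8220 for let-7i and 7628 for the empty vector (0.10). In all, 3 of the 7 named squamous epithelial markers were above the floor. KRT5, a defining basal keratin, was not (7.88 with let-7i and 11.9 with the empty vector), nor were KRT14, DSG3 and PKP1. The squamous identity of the line thus does not show in these keratins, nor in DSG3 or PKP1. KRT6A, KRT17 and TP63, also on the list of markers, had no probe set with their symbol alone. The summed signal of the 7 was 20052 with let-7i and 25440 with the empty vector. EPHA1 and EPHB3 are expressed in epithelia, and the part of these markers, 2 lower and 1 higher, in their ratios was not tested. Among the endothelial markers, which matter for EFNB2 and EPHB4, 1 of 8 was above the floor (PECAM1, with 371.7 with let-7i and 319.3 with the empty vector and probe sets of both signs). CDH5, the defining cadherin of that cell type, was below it (54.6 with let-7i and 46.3 with the empty vector). The summed endothelial signal was 504.2 with let-7i and 501.8 with the empty vector, most of it from PECAM1. Sums of markers hold signals under the floor and are given as they stand. Of 8 fibroblast markers 2 were above the floor, and the summed signals of the 8 were 945.9 with let-7i and 699.3 with the empty vector. Most of these sums came from COL1A1 (415.0 with let-7i and 346.3 with the empty vector) and DCN (322.0 with let-7i and 163.1 with the empty vector). DCN was measured in 1 of its 7 probe sets. Of 6 leukocyte markers 3 were above it, with sums of 357.8 with let-7i and 467.5 with the empty vector, and PTPRC, which defines leukocytes, was below it. Of 6 neural markers 2 were above it, with sums of 688.8 with let-7i and 778.4 with the empty vector.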

How the data were processed

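Total RNA of 2 cultures was labelled with biotin as cRNA, per the labels' protocols, and hybridised to 1 array each. The deposited values are signal intensities, 1 per probe set and array, which the authors computed by MAS5, per the submitters' processing notes. No version or setting is given in the sources used. The trimmed mean (2% off each end) of the linear intensities is 500.1 on each array, so a difference in total RNA per cell is lost. Dim values are noisy, since MAS5 takes off the mismatch signal. The number of arrays limits the precision.

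Probe sets were named through the platform annotation. Of 54675, 41097 carried 1 symbol and were used, 1801 carried several and 11777 were not listed. All 50 Eph and ephrin probe sets had the symbol that RefSeq (GRCh38.p14) gives for their Entrez ID. The centring shift was 0.0036 (log2). The settings varied were the centring (none, or lowess with a fraction of 0.3 and 3 iterations), the scaling (quantile normalization) and the floor (25th or 65th percentile), besides leaving out probe sets ending in _s_at or _x_at, the mean over a gene's readable probe sets (centred anew), and 1.5-fold. Named genes were all members and family genes, and per effector list up to 4 genes measured on both arrays with the largest ratio plus any past 2-fold. The members and lists were chosen with earlier results of these data known. The computation of the ratios was checked on simulated arrays with known changes set in brighter probe sets. That check does not bear on dim probe sets such as those of EPHB3 and EPHA1. Ratios were computed in pandas 2.3.3 and NumPy 2.4.6 under Python 3.11.15, lowess in statsmodels 0.14.6, and figures in Matplotlib 3.10.9.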

Additional observations from a re-analysis of the deposited data

How the results depend on the processing

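The count of member probe sets at least 2-fold lower, 1 in the setting reported, was 0 after lowess centring, 0 after quantile normalization, 0 under the floor at the 65th percentile and 2 under that at the 25th, where EPHB3 probe set 1438_at reached -1.545. It was 3 at 1.5-fold. The count at least 2-fold higher was 0 in all settings tried, and the median over member probe sets ran from -0.055 to -0.023. Of 58 log2 ratios of member genes that stayed readable under an alternative, 58 moved by less than 0.25. Of these, 6 changed sign, all of EPHB4, EFNA4 or EFNB2 and near 0. For a probe set above the floor on both arrays, leaving out the centring, moving the floor or dropping other probe sets changes only the common shift. A move of 0.25 was hardly possible in those settings, so they are no test of these ratios. Cases without a readable probe set are not among the 58. They are EPHA1, EPHB3 and EFNB1 under the floor at the 65th percentile, and EPHA1 and EFNA4 without probe sets ending in _s_at or _x_at. Over all probe sets, 235 were at least 2-fold higher and 332 lower (41.4% of calls higher), against 288 and 254 (53.1%) with lowess and 282 and 261 (51.9%) with quantiles. At the 25th percentile these counts were 1378 and 2315, and at the 65th (213.7 on the let-7i array and 228.8 on the empty vector array) 101 and 121, a setting that leaves no readable probe set for EPHA1 or EPHB3. No paired analysis was possible because each group had 1 array. The signals of EPHB3, close to the floor, limit how far its ratio can be read.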

Other observations

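EFNA4, EFNA3 and EFNA1 are neighbouring genes on chromosome 1, with the read-through gene EFNA4-EFNA3 over the first pair. Their log2 ratios were -0.01, 0.30 and 0.08, so the 3 neighbours had no common decrease or increase past 1 SD of a probe set at their signals (0.25, 0.34 and 0.21). The ephrin of the A type that was lower in each of its 3 measured probe sets, EFNA5, lies outside this cluster.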
